A study of Caenorhabditis elegans with 2 samples.

Results

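The X chromosome of Caenorhabditis elegans carries 276 of the 612 nuclear genes that the RefSeq annotation of build WBcel235 classes as tRNA genes, among 46890 nuclear genes of every class. All 276 were taken, whatever their signal. A tRNA gene was counted as having a region when the summit of a listed region lay inside it or within 250 bp of either end. By this rule 80 of the 276 genes had a region in the pooled list of both replicates, 166 had a region in replicate 1 and 149 had a region in replicate 2. As background, X was divided into 30977 consecutive windows of 572 bp, the span of a typical tRNA gene with its 250 bp flanks, of which 1.49%, 14.4% and 10.4% held a summit of these 3 lists.

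The regions come from chromatin immunoprecipitation and sequencing (ChIP-seq) of whole young adult hermaphrodites of strain OP543, collected 64 hours after synchronization by starvation at the L1 stage after bleaching. All animals came from a stable transgenic line in which SDZ-38 carries GFP and FLAG at its C terminus, and precipitation was with anti-GFP per the description, whereas the antibody field reads sdz-38. There are 2 biological replicates of this 1 group, and no library without the tagged protein was analysed here, so whether a region marks SDZ-38 itself was not tested. The labels do not name the promoter that drives the transgene, and signal from whole animals averages over all tissues.

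tRNA genes are short genes transcribed by RNA polymerase III. Their promoter lies inside the gene, in sequences called the A box and the B box that the factor TFIIIC binds, and TFIIIC then places TFIIIB upstream of the start, where the polymerase is recruited. Transcription ends in a run of T shortly after the gene. Animals carry many copies of most tRNA genes, often with the same sequence, and a gene's isotype is the amino acid that its tRNA accepts.

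The strongest region at tRNA genes of X lay between 2 tRNA-Ala genes, F15G9.t1 and F15G9.t2, in an intron of him-4, which encodes the extracellular matrix protein hemicentin. The stretch is chrX:9743589-9743818 on the plus strand of WBcel235, and capitals mark both genes, which stand 86 bases apart.
F15G9.t1 and F15G9.t2: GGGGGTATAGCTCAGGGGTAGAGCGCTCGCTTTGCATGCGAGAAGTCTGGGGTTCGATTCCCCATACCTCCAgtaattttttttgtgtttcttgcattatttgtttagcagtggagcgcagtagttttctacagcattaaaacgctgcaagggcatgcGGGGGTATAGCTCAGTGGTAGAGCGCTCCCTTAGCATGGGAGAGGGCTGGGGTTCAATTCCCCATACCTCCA
The genes differ at 7 of 72 positions, and the pooled summit at 9743697 lies between them, 37 bp from F15G9.t1 and 50 bp from F15G9.t2.

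A further set shows the 3 tRNA-Leu genes with optimal peaks and, beside them, a gene with no region in any list. Each is printed on its own strand from RefSeq, and capitals mark the words GTTCGANNC, a form of the B box, and TGGCNNAGT, a form of the A box. Of the tRNA-Leu genes ZK678.t1, C04A11.t1 and F42F12.t1, the last 2 are the longest genes shown. C49F5.t1, a tRNA-His gene, had no region.
ZK678.t1 (tRNA-Leu): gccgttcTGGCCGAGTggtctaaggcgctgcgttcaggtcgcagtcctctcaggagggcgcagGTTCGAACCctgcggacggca
C04A11.t1 (tRNA-Leu): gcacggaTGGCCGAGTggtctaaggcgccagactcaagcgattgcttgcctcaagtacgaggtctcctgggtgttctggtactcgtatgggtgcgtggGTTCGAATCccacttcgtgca
F42F12.t1 (tRNA-Leu): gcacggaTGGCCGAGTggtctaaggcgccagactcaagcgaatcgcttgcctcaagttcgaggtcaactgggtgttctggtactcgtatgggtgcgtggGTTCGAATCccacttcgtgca
C49F5.t1 (tRNA-His): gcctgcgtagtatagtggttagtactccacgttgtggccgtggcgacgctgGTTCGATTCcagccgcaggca
C49F5.t1 carries the sequence of 8 tRNA-His genes of X, none of which had a pooled region. It holds the B box word all the same.

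The 3 neighbouring tRNA-Pro genes of the C16B8 group are shown because they differ in both sequence and signal. C16B8.t1 has the sequence of the largest family on X, while C16B8.t2 and C16B8.t3 each occur once in the nuclear genome. None of the 3 holds either word exactly.
C16B8.t1: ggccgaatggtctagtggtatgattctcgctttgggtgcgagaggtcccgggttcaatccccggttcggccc
C16B8.t2: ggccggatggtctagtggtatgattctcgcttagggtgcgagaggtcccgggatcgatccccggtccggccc
C16B8.t3: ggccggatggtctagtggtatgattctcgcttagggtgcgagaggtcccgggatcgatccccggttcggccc
C16B8.t1 and C16B8.t2 differ at 5 of 72 positions, and C16B8.t2 and C16B8.t3 differ at 1. C16B8.t2 and C16B8.t3 shared a region with a signal value of 48.5 in the pooled list, 23.3 in replicate 1 and 24.9 in replicate 2. C16B8.t1, the first of the 3 along the chromosome, had no pooled region, none in replicate 1 and one of 14.3 in replicate 2.

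The deposited lists held 1242 regions (pooled), 17743 (replicate 1) and 12648 (replicate 2), and the authors' optimal list held 102. Of these, 473, 4767, 3434 and 34 lay on X. The signal value is the authors' score for a region, on a scale that is not stated, and it was used here only to rank and describe regions within a list. The highest nuclear value was 165 in the pooled list, 104 in replicate 1 and 82.6 in replicate 2, and higher values lay on the mitochondrial genome. The summit was the centre of the region in 1229 of the 1242 pooled regions, with a median width of 456 bp. Every pooled region at a tRNA gene of X had this width. The width thus does not tell how precisely a summit is placed, and that precision is unknown for the distances below.

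A pooled region lay at 80 of the 276 genes, a share of 29.0% (exact 95% interval 23.7% to 34.7%). The same was true of 1.49% of the windows of X. In replicate 1 the share was 60.1% (54.1% to 66.0%) against 14.4% of windows. In replicate 2 it was 54.0% (47.9% to 59.98%) against 10.4% of windows. Optimal peaks lay at 17 genes, 6.16% (3.63% to 9.68%), against 0.11% of windows. In every one of the 4 lists the share of tRNA genes stood above the share of windows, by ratios of 19.4 (pooled), 4.19 (replicate 1), 5.17 (replicate 2) and 56.1 (optimal).

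Autosomal tRNA genes had smaller shares, but autosomal windows did too. A pooled region lay at 64 of 336 autosomal tRNA genes, or 19.05% (14.99% to 23.7%), and in 0.513% of autosomal windows. The X share was higher by 9.94 percentage points, with a 95% interval of 3.16 to 16.7 that treats genes as independent although neighbours share regions. Among genes whose sequence occurs once, 55 on X and 85 on autosomes, the difference was 4.06 points with an interval of −7.94 to 17.5 that includes 0, and for optimal peaks over all genes it was 4.37 points (1.31 to 7.99). In replicate 1, 149 autosomal genes (44.3%) had a region against 8.51% of windows, and in replicate 2, 133 genes (39.6%) did against 6.12%. For optimal peaks the autosomal count was 6 genes (1.79%) against 0.0326% of windows. Among tRNA genes the X share was 1.52 times the autosomal share in the pooled list, and among windows the X share was 2.91 times the autosomal one. The same ratios were 1.36 and 1.69 in replicate 1, 1.36 and 1.71 in replicate 2, and 3.45 and 3.37 for optimal peaks. As a ratio, X thus exceeded the autosomes at tRNA genes by no more than across all windows in the pooled list and each replicate. In the optimal list the ratios were about equal. In percentage points X exceeded the autosomes by more at tRNA genes than across windows in every list. In the pooled list this was 9.94 points at tRNA genes, where windows stood at 1.49% and 0.513%. The comparison thus depends on the scale.

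Other classes of gene give the scale. snoRNA genes, which guide the chemical modification of other RNAs, had pooled regions at 50 of 346 (14.5%), with 32.9% in replicate 1 and 30.3% in replicate 2. Genes annotated as tRNA pseudogenes were added after the shares above were known. On X none of 29 had a pooled region, which allows a share of up to 10.3% when a count of 0 is read as at most 3 (the exact 95% upper bound is 11.9%), and 3 had a region in each replicate (10.3%, against 14.4% and 10.4% of windows). On the autosomes 5 of 180 pseudogenes had a pooled region (2.78%).

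**Figure D1:**
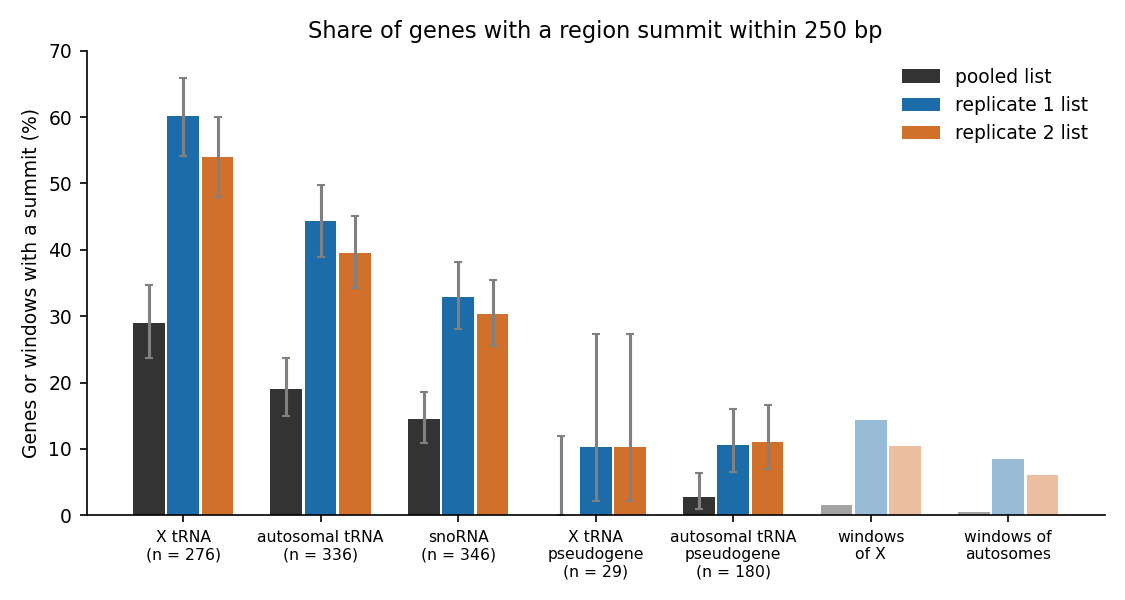
Share of genes, in percent, with a region summit within 250 bp in the pooled list, replicate 1 and replicate 2, for tRNA genes of X and of the autosomes, snoRNA genes, tRNA pseudogenes and consecutive windows of 572 bp; error bars are exact 95% intervals that cover counting error only. tRNA genes of X have the highest bars in each list (29.0%, 60.1% and 54.0%), and windows of X stand at 1.49%, 14.4% and 10.4%.

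Regions at tRNA genes of X had higher medians than other regions in the pooled list and in each replicate, but not in the optimal list. In the pooled list there were 73 such regions, 11 of which served 2 genes each, while 4 genes had 2 regions each. Their signal values ran from 39.4 to 117 with a median of 52.3. The other 400 regions of X had a median of 43.8, and the 60 regions at autosomal tRNA genes a median of 47.1. The median rank of the 73 was 225 of 1242, and 58 of them lay in the stronger part when the list was split at its middle. In replicate 1 the 157 regions at tRNA genes of X had a median signal of 21.5 (13.3 to 72.0), against 16.8 for other X regions. In replicate 2 the 151 regions had a median of 20.2 (12.9 to 63.1), against 15.8. Among the optimal peaks, a list already limited to strong regions, the 14 at tRNA genes of X had a median of 70.3, against 71.0 for other X peaks and 72.3 for other autosomal peaks.

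The share of regions at tRNA genes of X fell with rank in each list. Of the 25 strongest nuclear regions, 5 lay at such a gene in the pooled list, 4 in replicate 1 and 6 in replicate 2. The next 75 held 13 (17.3%), 10 (13.3%) and 11 (14.7%). Beyond rank 600, 15 of 621 pooled regions did (2.42%). Beyond rank 5000 the shares were 0.424% in replicate 1 and 0.459% in replicate 2. Of the pooled regions on X alone, those at tRNA genes were 5 of 10 within the first 25 nuclear ranks (50%). They were 13 of 30 within the next 75 (43.3%) and 15 of 225 beyond rank 600 (6.67%). Within the first 25 ranks they were 4 of 11 in replicate 1 (36.4%) and 6 of 10 in replicate 2 (60%).

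**Figure D2:**
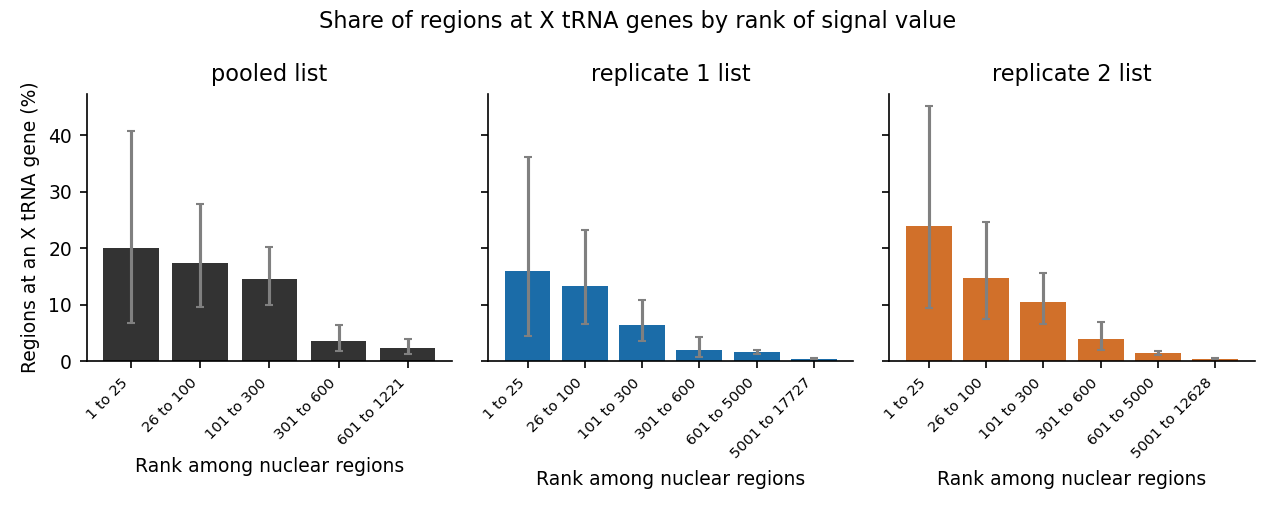
Share of nuclear regions, in percent, that lie at a tRNA gene of X, by rank of signal value (1 is strongest) in the pooled list, replicate 1 and replicate 2; error bars are exact 95% intervals. The first bin of 25 regions stands at 20%, 16% and 24%, and the last bin at 2.42%, 0.424% and 0.459%.

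The strongest single loci were the following. F15G9.t1 and F15G9.t2, the tRNA-Ala pair in him-4, shared a region of 117 in the pooled list (rank 25), 72.0 in replicate 1 (rank 20) and 44.0 in replicate 2 (rank 39). M02F4.t2 (tRNA-Glu, chrX:3035976-3036047, minus strand) and M02F4.t1 (tRNA-Gly, chrX:3036164-3036235, plus strand) point away from each other in intergenic sequence and shared a region of 102, with 42.9 in replicate 1 and 63.1 in replicate 2. F41D9.t3 (tRNA-Asn, chrX:8404499-8404571) lies against the strand of its host sulp-3, a gene of the sulfate permease family, and had 96.2 in the pooled list, 57.7 in replicate 1 and 36.9 in replicate 2, with the summit inside the gene in all 3. All of these genes ranked within the first 100 regions of each replicate, and replicate 1 was the higher at F15G9 and F41D9.t3 while replicate 2 was the higher at M02F4.

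The tRNA-Leu gene ZK678.t1 (chrX:15742050-15742133), with its 84 bases printed above, had a signal of 88.6 in the pooled list, 40.3 in replicate 1 and 51.4 in replicate 2. C04A11.t1 (chrX:13665555-13665673) had 69.999, 39.9 and 33.3, and F42F12.t1 (chrX:12348007-12348126, minus strand) had 66.8, 37.5 and 27.9. These last 2 occur once in the nuclear genome and are 119 and 120 bases long. No other gene shares their whole sequence.

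R01H5.t1 (tRNA-Thr, chrX:12563788-12563859) had 80.1 in the pooled list, 39.0 in replicate 1 and 35.6 in replicate 2. C30E1.t1 (tRNA-Gly, chrX:16928271-16928341) had 76.9, 39.8 and 41.4. W03G11.t1 (tRNA-Lys, chrX:12106147-12106219) had 70.2, 27.9 and 44.4, and its ranks were 565 and 37 in the replicates. Of these 3 intergenic genes, W03G11.t1 thus ranked within the first 100 in replicate 2 only.

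Optimal peaks at hosted genes included 2 at tRNA-Asp genes of identical sequence. F52H2.t1 (chrX:2553565-2553636), in an intron of the amino acid transporter gene aat-3 and on its strand, had 70.4 in the pooled list, 49.5 in replicate 1 and 28.4 in replicate 2. F38G1.t2 (chrX:489868-489939), against the strand of the fibroblast growth factor gene egl-17, had 65.2, 34.1 and 30.8. T25B6.t2, an intergenic tRNA-Thr gene (chrX:9024413-9024484), had 65.0, 40.8 and 23.1, and F18G5.t2, a tRNA-Ala gene in the ligand-gated channel gene lgc-4 (chrX:9238863-9238934), had 63.3, 26.9 and 32.1. The 17 genes with an optimal peak shared 14 peaks, whose signal values ran from 63.3 to 117.

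Of the 20 isotypes encoded on X, 18 had at least 1 gene with a pooled region. Beside the 29.0% of all 276 genes, pooled shares were highest for tRNA-Asp (6 of 12), tRNA-Cys (3 of 7), tRNA-Thr (6 of 14) and tRNA-Val (6 of 14). The tRNA-Cys genes K01A12.t5 and K01A12.t4 shared 1 pooled region. In replicate 2 tRNA-Cys had 2 of 7 (28.6%), below the 54.0% of all genes. tRNA-Arg, with 27 genes, and tRNA-Glu, with 23, had 7 each, and tRNA-Lys had 7 of 18. tRNA-Ala had 5 of 13 in the pooled list, and all 13 of its genes had a region in replicate 1 against 7 in replicate 2. With 5 to 27 genes an isotype, the exact intervals of these shares are wide, for example 21.1% to 78.9% for tRNA-Asp and 11.1% to 46.3% for tRNA-Arg. The interval of every isotype included the 29.0% of all genes.

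The low isotypes were tRNA-His, tRNA-Trp, tRNA-Pro and tRNA-Met. tRNA-His had no pooled region at 9 genes, which allows a share of up to 33.3% on the same reading (exact bound 33.6%), and 2 and 3 of its genes had a region in replicates 1 and 2. tRNA-Trp had none at 5 genes, and regions at 2 genes in replicate 1 and at another 1 in replicate 2. tRNA-Pro had 2 of 20 in the pooled list but 13 in replicate 1 and 12 in replicate 2, so most of its genes with a region had none in the pooled list. tRNA-Met had 1 of 8, C03F11.t1 (chrX:5407413-5407485), with 62.4 in the pooled list, 33.2 in replicate 1 and 30.2 in replicate 2.

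The tRNA-Trp genes include loci known to worm geneticists as amber suppressors, which were singled out after their values were seen. sup-7 (chrX:6371378-6371449) had a region in replicate 1, with a signal of 21.3, and none in replicate 2. sup-28, in the trk-1 gene, had one of 14.1 in replicate 1 only. sup-21 and sup-33 had none in any list, and rtw-5 had one of 17.3 in replicate 2 only. None of these 5 genes had a region in both replicates.

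The best gene of each remaining isotype lay lower in the list. C02D4.t1 (tRNA-Ile, chrX:15297471-15297544), in the tyramine receptor gene ser-2, had 61.2 in the pooled list, 26.5 in replicate 1 and 33.6 in replicate 2. C53C7.t1 (tRNA-Ser, chrX:13046578-13046659) had 57.5, 24.8 and 22.4, and K09A11.t1 (tRNA-Tyr, chrX:13264683-13264766) had 51.2, 26.2 and 28.9. T28B4.t1 (tRNA-Phe, chrX:6593596-6593668), in the F-box gene fbxl-4, had 53.4, 32.9 and 22.0. F12D9.t1 (tRNA-Cys, chrX:8638922-8638993) and F12D9.t5 (tRNA-Arg, chrX:8639225-8639295) shared a pooled region of 53.0. Its summit lay 17 bp from F12D9.t1 but 215 bp from F12D9.t5, so the value cannot be assigned to F12D9.t5 alone. F12D9.t1 had 39.6 in replicate 1 and nothing in replicate 2, whereas F12D9.t5 had 28.8 and 25.7. The next tRNA-Arg gene, C18A11.t2, had a pooled region of 52.4 with its summit 19 bp away, and 35.4 and 20.2 in the replicates.

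**Figure D3:**
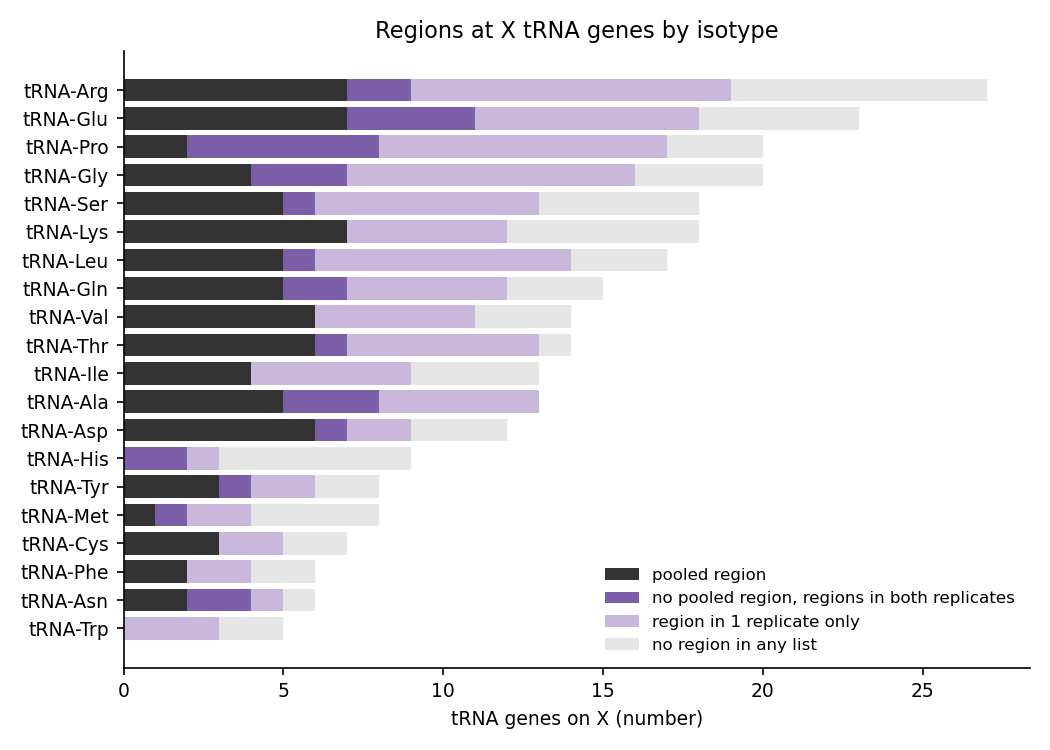
Number of tRNA genes on X by isotype, split into genes with a pooled region, genes with regions in both replicates but no pooled region, genes with a region in 1 replicate only and genes with no region. tRNA-Arg is the longest bar (27 genes, 7 pooled), tRNA-His (9) and tRNA-Trp (5) have no pooled region, and 3 genes with no product given are not drawn.

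Of the 276 genes, 95 lay in an intron of a protein-coding gene, 1 overlapped an exon and 180 had no host. Pooled regions were found at 35 of the 95 intronic genes (36.8%, 27.2% to 47.4%) and at 45 of the 180 without a host (25%, 18.9% to 32.0%). In replicate 1 the counts were 64 of 95 and 101 of 180, and in replicate 2 they were 48 of 95 (50.5%) and 100 of 180 (55.6%), so the order turned in replicate 2. Autosomal tRNA genes had the opposite order in the pooled list, with 15.9% of 189 intronic genes and 24.1% of 141 without a host. Genes on the strand of their host had a pooled region in 21 of 51 cases (41.2%) and genes on the other strand in 14 of 45 (31.1%). The intervals, 27.6% to 55.8% and 18.2% to 46.6%, overlap. In replicate 1 the order turned, with 33 of 51 (64.7%) and 32 of 45 (71.1%). In replicate 2 the counts were 29 of 51 (56.9%) and 20 of 45 (44.4%), and optimal peaks lay at 4 genes of each kind. Whether intronic and other genes differ was not tested.

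The 96 hosted genes lay in 68 host genes, of which 28 held a tRNA gene with a pooled region and 16 held several tRNA genes. ajm-1, which encodes a protein of the apical junction of epithelia, held 5 tRNA-Gln genes, and K01A12.3 held 5 genes for tRNA-Arg and tRNA-Cys. Hosts of 3 tRNA genes with none in the pooled list were the channel genes deg-1 and unc-58, with srxa-9 and wrt-9. By chromosome strand the counts were 41 of 136 on the plus strand and 39 of 140 on the minus strand. In 3 equal parts of X, from left to right, the pooled shares were 35.3% of 51, 21.5% of 107 and 33.1% of 118 genes. They were 66.7%, 61.7% and 55.9% in replicate 1 and 56.9%, 50.5% and 55.9% in replicate 2. The part with the lowest share thus depended on the list. Of the 68 genes with a protein-coding 5′ end within 1000 bp, 19 had a pooled region (27.9%), and of the other 208 genes 61 did (29.3%). Optimal peaks lay at 4 of the 68 (5.88%) and at 13 of the 208 (6.25%). The 4 were F38G1.t2 and the tRNA-Leu genes ZK678.t1, F42F12.t1 and C04A11.t1, at 183, 477, 503 and 966 bp from such an end.

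When neighbours at most 1000 bp apart were joined, the 276 genes formed 54 clusters with 135 genes and 141 genes on their own. A pooled region lay in 20 of the 54 clusters (37.0%) and at 45 of the 141 single genes (31.9%), but a cluster has several genes that could carry one. Counted by gene, 35 of the 135 clustered genes had a pooled region (25.9%), a lower share than among single genes. The intervals, 18.8% to 34.2% and 24.3% to 40.3%, overlap. Autosomal tRNA genes had the opposite order, with 25.7% of 101 clustered and 16.2% of 235 single genes. Whether clustered and single genes differ was not tested. Most clusters were pairs (39), 40 held a single isotype, and the largest held 6 genes.

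The cluster in ajm-1 (chrX:9090627-9091628) had 4 of its 5 tRNA-Gln genes with a pooled region. H08J11.t2 and H08J11.t3 shared an optimal peak of 64.8, with 35.2 in replicate 1 and 28.8 in replicate 2. The summit fell inside H08J11.t3, and H08J11.t2, which differs from it at 1 position, was 184 bp away. H08J11.t5 and H08J11.t1 shared a region of 45.5, with 19.7 and 23.03 in the replicates, and H08J11.t4, between the pairs, had none in any list. In the 4 tRNA-Val genes of identical sequence at T01B4 (chrX:16298341-16300661), 3 had pooled regions, of 55.5 at T01B4.t1, 39.4 at T01B4.t2 and 47.8 at T01B4.t4, and T01B4.t3 had none in any list. The replicates ordered them differently, with 18.6, 31.1 and 35.4 in replicate 1 and 37.3, 17.3 and 16.4 in replicate 2.

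The 2 clusters of 6 genes had no pooled region. F28H6 (chrX:14135045-14137010) holds 6 tRNA-His genes of identical sequence on alternating strands. Its only region was one of 16.5 in replicate 2, at F28H6.t2. Of the 31-base words within 250 bp of each of these genes, between 4.24% and 78.4% occurred once in the nuclear genome, against a median of 89.4% over all 276 genes, and the part of this repetition in the missing regions was not tested. The F22F1 cluster of tRNA-Ser, tRNA-Asp, tRNA-Met and tRNA-Ile genes (chrX:8154445-8156707) had regions of 16.1 to 17.4 at 5 genes in replicate 1 and one of 14.2 over 2 genes in replicate 2.

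The genes of X have 106 distinct sequences, and 26 of these are shared by at least 4 genes of X, 186 genes in all. These families and the classes below were formed after the counts by gene were known. In 22 of the 26 families some members had a pooled region and others did not, in 4 families none did, and in none did all. Over all 276 genes the share was 29.0%. At such a share, families of 4 to 13 genes would often be mixed whatever their sequence, so these counts say little about identical genes. The 13 identical tRNA-Pro genes had 0 pooled regions, 7 in replicate 1 and 8 in replicate 2. The 12 of the main tRNA-Glu family had 6, the 10 of tRNA-Asp 6, the 10 of tRNA-Lys 5, and the 9 of the main tRNA-Leu family 1. Listed signals thus differed from locus to locus within families. In the tRNA-Pro family 77.7% to 90.0% of the words within 250 bp of each gene occurred once, but none of those inside C16B8.t1 did. The part of repeated sequence in these counts was not tested.

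Among 7 identical tRNA-Ala genes this spread can be followed gene by gene. In the pooled list F15G9.t2 had 117 and C11E4.t1 had 54.3, and the other 5 had none. In replicate 1 all 7 had a region, of 72.0 at F15G9.t2, 47.4 at C11E4.t1, 21.5 at F34H10.t1, 20.0 at T08A9.t1, 18.3 at T18D3.t1, 16.2 at C56G3.t1 and 15.8 at F48E3.t1. In replicate 2 only F15G9.t2 (44.0), F34H10.t1 (15.5) and F48E3.t1 (13.6) had one. F15G9.t2 was the highest in every list, while C11E4.t1 ranked 39 in replicate 1 and was missing from replicate 2. The values of F15G9.t2 are those of regions shared with F15G9.t1, which has another sequence. The summit was nearer F15G9.t1 in the pooled list (37 against 50 bp) and in replicate 2 (6 against 81 bp). In replicate 1 it was nearer F15G9.t2 (35 against 52 bp). These values therefore cannot be assigned to F15G9.t2 alone. F18G5.t2 carries the same sequence with its annotated span shifted by 1 base and was not counted among the 7.

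Copy number and uniqueness were set beside the counts, because reads from identical sequence cannot be placed at a single gene. Pooled regions lay at 10 of 55 genes whose sequence occurs once in the nuclear genome (18.2%, 9.08% to 30.9%), at 24 of 66 with 2 to 9 copies (36.4%) and at 46 of 155 with 10 or more (29.7%). Autosomal genes that occur once had 12 of 85 (14.1%). The median share of unique 31-base words was 89.5% for genes with a pooled region and 89.2% for those without. Of the 17 genes with under 70% unique words none had a pooled region, which allows up to 17.6% on the reading of 0 as at most 3 (exact bound 19.5%), and 4 and 3 had one in the replicates. The part of uniqueness in the other counts was not tested.

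The promoter words differed between genes with and without a region by an amount that depended on the list. GTTCGANNC was present on the gene's strand in 56 of 80 genes with a pooled region (70%) and in 144 of 196 without (73.5%). TGGCNNAGT was present in 8 (10%) and 15 (7.65%). For GTTCGANNC the shares with and without a region were 68.1% and 79.1% in replicate 1, 72.5% and 72.4% in replicate 2, and 52.9% of 17 genes against 73.7% in the optimal list. For TGGCNNAGT they were 9.04% and 7.27% in replicate 1, 8.05% and 8.66% in replicate 2, and 17.6% and 7.72% in the optimal list. The 17.6% stands for 3 of 17 genes, all of 1 isotype, namely the tRNA-Leu genes ZK678.t1, C04A11.t1 and F42F12.t1 printed above. None of these differences was tested. On autosomes the shares were 71.7% and 11.3% of tRNA genes. A run of TTTT within 30 bases after the gene was found in 273 of the 276, including all 80 with a pooled region. In 1083 pooled regions away from tRNA genes, a window of 73 bases at the summit held GTTCGANNC on either strand in 1.48% and TGGCNNAGT in 1.48%. A match describes these letters and no more.

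The choice of genes limits summits to 250 bp on either side, so a median position near the gene's middle carries no information, and distances are set beside those of summits spread evenly over the same span. Of the 80 genes with a pooled region, 33 held the summit of their strongest region, 25 had it upstream and 22 downstream. The distance from summit to gene had a median of 16 bp, and 68 genes (85%) had it within 100 bp. Even spread would put 13.04% inside the gene and 47.8% within 100 bp, against 41.2% and 85% here. Within 100 bp lay 71.7% of the summits in replicate 1 and 69.1% in replicate 2. No test of this was made. In replicate 1 the median distance was 43.5 bp over 166 genes and in replicate 2 it was 25 bp over 149. At autosomal tRNA genes the pooled median was 13.5 bp over 64 genes. The farthest pooled summits inside the limit stood 215 bp away, at K11E4.t6 and F12D9.t5, and the nearest outside at 257 bp, at K01A12.t1, which had regions of 30.7 in replicate 1 and 20.0 in replicate 2.

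**Figure D4:**
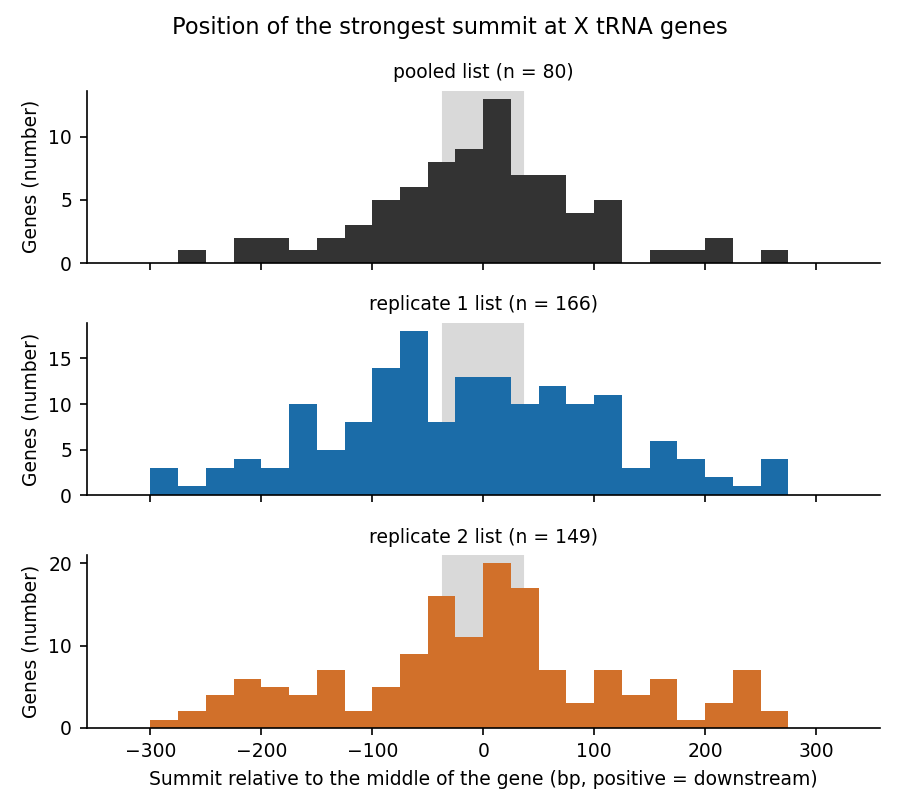
Position of the strongest summit relative to the middle of the gene, in bp along the gene's strand, for the pooled list (80 genes), replicate 1 (166) and replicate 2 (149); the grey band is a gene of median length. Genes were chosen for a summit within 250 bp; 68 of 80 pooled summits lay within 100 bp, 85%, where an even spread gives 47.8%.

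Regions at 106 genes were present in both replicates (38.4%), at 60 in replicate 1 only, at 43 in replicate 2 only and at 67 in neither. The product of the replicates' own shares, which takes them as independent, is 32.5%, and 3.71% of the windows of X had a summit in both. The shared genes were 63.9% of those with a region in replicate 1 and 71.1% of those with one in replicate 2, where all genes had 54.0% in replicate 2 and 60.1% in replicate 1. Among windows of X the same shares were 25.8% and 35.5%. At autosomal tRNA genes 88 of 336 (26.2%) were in both, against a product of 17.6% and 1.77% of autosomal windows. Both lists used the same control file, and its part in the overlap was not tested. The shared genes had the higher signal, with a median of 24.8 in replicate 1 against 18.2 for genes in that replicate alone, and of 23.1 against 17.9 in replicate 2. Of the 80 genes with a pooled region, 75 had a region in both replicates and 5 in 1. A further 31 genes had regions in both replicates and none in the pooled list.

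Among the 106 shared genes the signal values of the replicates had a Spearman correlation of 0.44, a description over genes that share clusters, regions and the same control file. It was 0.47 over 84 clusters and single genes. Summits in the replicates lay a median of 71.5 bp apart. Of the 100 strongest nuclear regions, those of replicate 1 touched 18 tRNA genes of X and those of replicate 2 touched 19, and 10 genes were common to both. Single genes could differ widely. F35A5.t1 (tRNA-Val, chrX:3793564-3793636) ranked 83 in replicate 1, with 38.9, and 12168 in replicate 2, with 12.9. K09C8.t1 (tRNA-Gly, chrX:10963828-10963899) ranked 15626, with 13.9, and 121, with 30.8. T01B4.t1 ranked 5465 and 59. K11E4.t5 in pix-1, a gene for an exchange factor of small GTPases, ranked 60 and 33, with a pooled signal of 61.5. Its replicate 2 summit lay inside the gene, but its replicate 1 summit lay 234 bp away and nearer K11E4.t6, at 115 bp. Close ranks thus do not show the same place of signal at this gene.

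**Figure D5:**
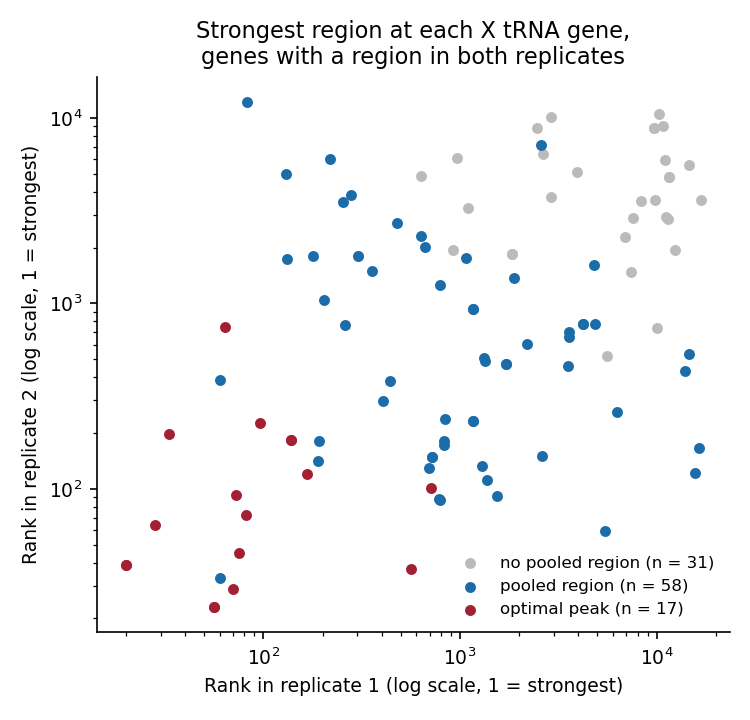
Rank in replicate 1 (horizontal) against rank in replicate 2 (vertical), both on log axes with 1 as the strongest, for the strongest region at each of the 106 tRNA genes of X with a region in both replicates; colours mark genes with an optimal peak (17), with a pooled region only (58) and with no pooled region (31). Genes with an optimal peak rank from 20 to 714 in replicate 1 and from 23 to 746 in replicate 2, and genes that share a region share a point.

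Genes that make and charge tRNAs showed no such regions in the pooled list. Of 31 listed genes for RNA polymerase III subunits, its factors, tRNA export and aminoacyl-tRNA synthetases, 30 were found, and none had a pooled summit within 1000 bp of its 5′ end, against 2.98% of 19971 protein-coding genes. A count of 0 among 30 genes, read as at most 3, allows a share of up to 10%, above that background. All 30 lie on autosomes, while the background in each list includes protein-coding genes of X. Windows of X held a summit 2.91 (pooled), 1.69 (replicate 1) and 1.71 (replicate 2) times as often as autosomal windows. No background of autosomal genes alone was computed. In replicate 1, 6 had a region (20% against 31.6%), which were the synthetase genes fars-3, gars-1, nars-1 and tars-1, the polymerase subunit gene rpac-19 and the TFIIIC gene tftc-3. In replicate 2, 5 had one (16.7% against 23.9%), which were fars-3, hars-1, tars-1, rpac-19 and tftc-5.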

How the data were processed

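Peak lists of build ce11 were read for both replicates, their pool and the optimal list. The authors deposited narrowPeak files in which a region's signal value is a score of unstated scale. Per the notes deposited beside the files, each replicate's list came from its alignment and 1 control file, the pooled list from both alignments, and the optimal list from the irreproducible discovery rate (IDR) procedure. The aligner and peak caller were not given in the sources used here. Alignments and the control were not analysed here, so the depth is unknown. Lists of build ce10 were not used, because no coordinate was converted.

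A summit is the region start plus the deposited offset, counted from 1. Genes, hosts and sequences are from RefSeq WBcel235. Signals and ranks of a gene are those of its strongest region within 250 bp. Intervals are exact Clopper-Pearson, or Newcombe for a difference, and cover counting error only. No p-value was computed, since 2 replicates of 1 group allow no comparison of conditions.

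Genes named are those at optimal peaks, at the 15 strongest pooled regions, at the 5 strongest of each replicate, the best of each isotype and those next to the 250 bp limit, and others are named as single cases. Members, lists and tests were chosen with earlier results of these data known. Python 3.11.15, pandas 2.3.3, scipy 1.17.1 and statsmodels 0.14.6 were used, and the search for genes near summits was tested on made-up positions. Alternatives were other distances, overlap, stronger regions, clusters, single-copy genes, the optimal list and each replicate left out.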

Additional observations from a re-analysis of the deposited data

How the results depend on the processing

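Of 36 alternative values, 30 stayed within the limits set for them (1.5 times, for a count), 6 moved past and 0 reversed. Restricted to genes whose sequence occurs once, 55 genes of X remained. Of these, 10 had a pooled region, 17 had regions in both replicates and 39 in at least 1. The shares were lower too, at 18.2% with a pooled region and 30.9% with regions in both, against 29.0% and 38.4% of all genes of X. With the optimal list in place of the pooled list the count was 17, since that list holds 102 regions. With as many of the strongest regions of each replicate as the pooled list holds, 37 genes had regions in both, against 106. The median rank percentile went from 18.1 to 16.7 with nuclear regions ranked alone.

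Under the other distances, overlap, stronger regions, clusters counted once and each replicate's strongest regions, the count with a pooled region was 65 to 90, against 80. With distance, overlap, stronger regions and clusters, the count in both replicates was 74 to 127, and that in at least 1 was 163 to 240, against 209. With 1 replicate left out, the last count was 149 to 166. The difference between X and autosomal shares, 9.94 points, fell to 4.06 for single-copy genes, with an interval that includes 0, and to 4.37 with the optimal list, and reached 14.5 for clusters counted once. Both lower values lie inside the 9.94-point interval. The unknown depth, the 2 replicates and the missing untagged library limit every value.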
